A study of Mus musculus with 4 samples.

Results

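Notch signalling genes were examined in 2 structures of the fetal mouse kidney. The group comprised the receptors Notch1, Notch2 and Notch3, the ligands Jag1, Jag2 and Dll1, the receptor-modifying enzyme Lfng, and the target genes Hes1, Hes5 and Hey1. These 10 genes were chosen by name, with earlier results of these data known. Every probe set whose platform gene symbol was one of these names was taken, which gave 18 probe sets for 10 of the 18193 genes with a symbol of their own on the array. A probe set is a group of short oligonucleotides on the array that read 1 transcript.

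The structures were cut by laser from stained frozen sections of kidneys at stage E15.5, counted in embryonic days (Theiler stage 23). One group, the cortical collecting duct, is the outer stretch of the branched urine-collecting epithelium and had 1 array, which the labels number 3. The other, the anlage of the loop of Henle, is the forerunner of the nephron segment that includes the thick ascending limb and had 3 arrays, numbered 1 to 3. All fetuses were wild-type, of the outbred CD-1 stock and of unrecorded sex, and every array held RNA pooled from about 50 sections of 5 kidneys and amplified over 2 rounds. Nothing in the labels says whether the pools came from separate litters, so p-values measure the spread between these arrays, which may be technical. Captured cells were measured in bulk, so fewer cells of a type and less RNA per cell cannot be told apart.

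In Notch signalling, a ligand on one cell binds a receptor on its neighbour. The receptor is then cut by ADAM and gamma-secretase proteases, and its inner part enters the nucleus, binds the DNA-binding protein RBPJ and switches on target genes, among them repressors of the Hes and Hey families. Fringe enzymes such as Lfng add sugars to the receptor and shift which ligands it answers to. In the kidney, Notch2 is known for its part in patterning the nephron, and Notch signalling in the collecting duct is known for the choice between principal and intercalated cells. In blood vessels the same pathway acts in arterial endothelium and in mural cells.

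Levels are given as log2 of the quantile-normalized probe set intensity plus an offset of 109.6, and a gene stands for its brightest probe set unless another is named. Levels of different genes are not compared, since probe sets differ in how strongly they bind. A gene was tested when its mean log2 level reached 8.416, the 40th percentile of all probe sets, and 9 of the 10 Notch genes did. Of 10 collecting duct markers 8 lay above all 3 anlage arrays in the collecting duct array, and all 8 loop of Henle markers lay below. Anlage array 2 stood apart from the other anlage arrays on these markers. Its collecting duct markers summed to an intensity of 46529, against 12272 and 10088 in anlage arrays 1 and 3 and 105874 in the collecting duct, and its loop markers to 44114, against 162537 and 113082 there and 17652 in the collecting duct. Calb1, 1 of the collecting duct markers, read 14.86 in anlage array 2 and 13.88 in the collecting duct. It made up most of the collecting duct marker sum of anlage array 2. The mean log2 level of the 10 was 10.93 there, against 9.78 in anlage arrays 1 and 3 and 12.51 in the collecting duct. The ratio of 3' to 5' signal of Gapdh, which grows as RNA is shortened, ran from 10.2 in anlage array 1 over 12.1 in the collecting duct and 26.0 in anlage array 3 to 54.1 in anlage array 2.

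No Notch gene was called different between the collecting duct and the loop anlage. The collecting duct array had a higher value than the anlage mean for 4 of the 9 tested genes (Notch1, Notch2, Notch3 and Hes1) and a lower value for 5 (Jag1, Jag2, Dll1, Hes5 and Hey1), near the 45.1% and 54.9% of all tested genes. With arrays scaled to a common median the counts were 1 and 8, and as deposited 5 and 4. Two-sided limma tests with Benjamini-Hochberg adjustment called 0 of the 9 at an adjusted p of 0.05, where 0% of all 12642 tested genes were called in either direction, and 0 of the 9 had an unadjusted p under 0.05, against 1.18% of all genes higher and 2.23% lower. The collecting duct lay below all 3 anlage arrays for 2 of the 9, Jag1 and Dll1, a range that 24.3% of all genes also fell under. It lay above all 3 for 0 of the 9, against 17.3% of all genes. The median difference of the 9 genes was −0.14 on the log2 scale, and that of all genes −0.06. The sizes were also ordinary, with a median absolute difference of 0.278 for the 9 genes and 0.358 for all genes.

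**Figure D1:**
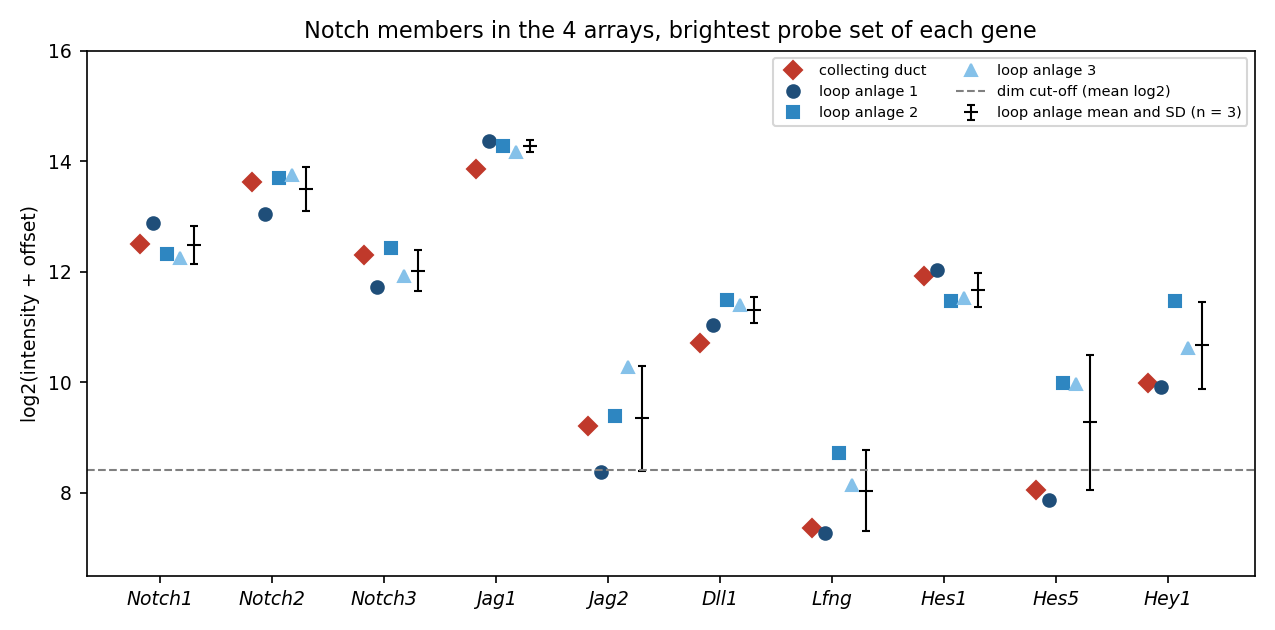
Levels of the 10 Notch genes, as log2(intensity + 109.6) of the brightest probe set, in the collecting duct array (red diamonds) and loop anlage arrays 1 to 3 (blue symbols), with the anlage mean and SD (n = 3) in black and the cut-off of 8.416 as a dashed line. The collecting duct lies below every anlage array only for Jag1 and Dll1, while for Hes5, Hey1 and Lfng it sits beside anlage array 1.

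All 3 receptors had collecting duct values inside the anlage range in their brightest probe sets. Notch1, a receptor used in many epithelia and in vessels, stood at 12.50 in the collecting duct and at 12.89, 12.32 and 12.25 in anlage arrays 1, 2 and 3. The difference was 0.01 ± 0.52 (SE), with a 95% interval from −1.26 to 1.28. That interval leaves room for a level up to 2.44-fold higher or 2.40-fold lower in the collecting duct.

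Notch2, the main receptor of nephron patterning, stood at 13.63 in the collecting duct and at 13.04, 13.70 and 13.75 in the anlage. Only anlage array 1 was lower than the collecting duct, and the difference was 0.13 ± 0.49 (SE), with an interval from −1.07 to 1.33. Notch3, a receptor known best from mural cells of vessels, stood at 12.30 against 11.72, 12.43 and 11.92. The collecting duct was second to anlage array 2, and the difference was 0.28 ± 0.54 (SE), with an interval from −1.04 to 1.60. All 3 signs turned with arrays scaled to a common median, which put the median of all genes at −0.24. The differences were then −0.24 for Notch1, −0.26 for Notch2 and −0.02 for Notch3.

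The second probe sets of Notch1 and Notch2 were dimmer and spread more widely. That of Notch1 (1418633_at) stood at 8.85 in the collecting duct, below 10.69, 9.04 and 9.49 in the anlage, a difference of −0.89 ± 0.80 (SE). The anlage arrays spanned 1.65 there, against 0.64 in the brighter probe set, with array 1 the highest in both. That of Notch2 (1451889_at) stood at 9.80 against 10.27, 8.66 and 8.90, highest in anlage array 1, where its brighter probe set read lowest. Its 4 arrays fell in the order of the Gapdh ratio, highest where the ratio was lowest, as did 15.2% of tested probe sets that were not the brightest of their gene. What part shortened RNA had in these values was not tested.

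Among the ligands, Jag1 gave the tightest values. Jag1 encodes Jagged1, a ligand of the forming nephron and of vessels, and stood at 13.86 in the collecting duct and at 14.37, 14.28 and 14.16 in the anlage. The collecting duct was the lowest of the 4 arrays, and the anlage arrays spanned 0.21. The anlage SD of 0.107 was at percentile 4.7 of all tested genes, so a small gap already set the collecting duct apart. The difference was −0.41 ± 0.38 (SE), a 1.33-fold lower level, with an interval from −1.34 to 0.52 and an unadjusted p of 0.322 in limma. At its upper end the interval reached a level 1.43-fold higher in the collecting duct.

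The 2 dim probe sets of Jag1 differed from each other in sign. Probe set 1421106_at read 8.53 in the collecting duct against 9.43, 9.15 and 8.95, again the lowest array. Probe set 1421105_at read 9.19 against 9.33, 8.80 and 8.58, with the collecting duct above anlage arrays 2 and 3. Their differences were −0.65 ± 0.56 and 0.28 ± 0.59 (SE).

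Dll1, a Delta-type ligand of early nephrons, stood at 10.71 in the collecting duct and at 11.04, 11.49 and 11.39 in the anlage. The collecting duct was the lowest array, and the difference was −0.59 ± 0.53 (SE), a 1.51-fold lower level, with an interval from −1.88 to 0.69 and an unadjusted p of 0.303 in limma. Its difference stayed between −0.79 and −0.46 in the other settings and without any 1 anlage array.

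Jag2, a second Jagged ligand, varied more among the anlage arrays than between structures. It stood at 9.21 in the collecting duct and at 8.38, 9.39 and 10.29 in anlage arrays 1, 2 and 3, so the anlage arrays spanned 1.90 and the collecting duct fell among them. The difference was −0.14 ± 0.80 (SE), its interval ran from −2.10 to 1.82, and without anlage array 3 the value turned to 0.34. The other probe set of Jag2 also read lowest in anlage array 1, at 7.94, and its difference was 0.03.

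Lfng, the fringe enzyme, was under the cut-off and was not tested in the fit reported here. It read 7.37 in the collecting duct and 7.27, 8.71 and 8.13 in the anlage, and only anlage array 2 passed 8.416. Its other probe set read between 6.85 and 6.95 in all 4 arrays, where the offset makes up most of the value. With no cut-off the difference was −0.67 ± 0.62 (SE), with an unadjusted p of 0.325 in limma.

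**Figure D2:**
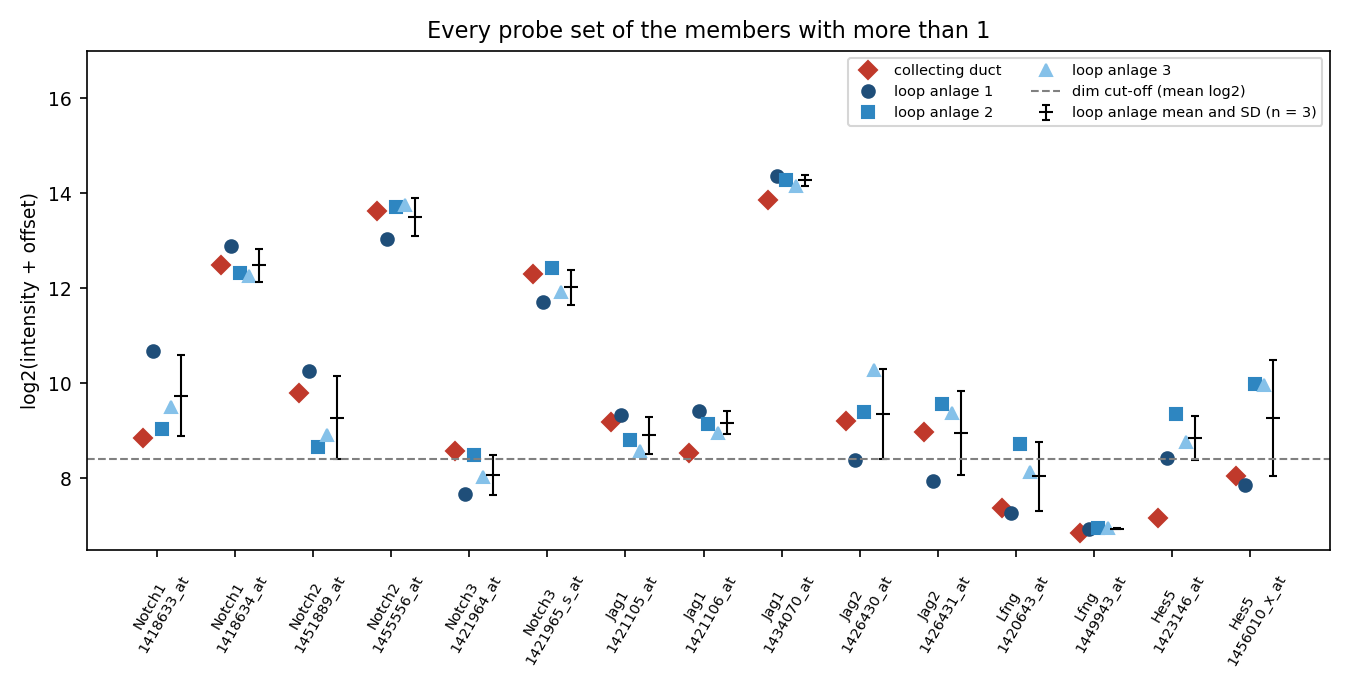
Every probe set of the 7 Notch genes that have more than 1, as log2(intensity + 109.6) in the collecting duct array (red diamonds) and loop anlage arrays 1 to 3 (blue symbols), with the anlage mean and SD (n = 3) in black. For Notch1, Jag1, Lfng and Hes5 the collecting duct is the lowest array in some probe sets and not in others, and the dashed line at 8.416 marks the level below which probe sets were not tested.

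Of the 3 target genes, Hes1 was steady and Hes5 and Hey1 were not. Hes1, a repressor that many Notch signals switch on, stood at 11.92 in the collecting duct and at 12.03, 11.47 and 11.52 in the anlage. The collecting duct lay beside anlage array 1 and above the other 2, and the difference was 0.25 ± 0.53 (SE), with an interval from −1.06 to 1.55. Its sign did not change in any setting tried. The arrays of Hes1 fell in the order of the Gapdh ratio, highest where the ratio was lowest, as for 10.7% of all tested probe sets. The part of shortened RNA in Hes1 was not tested.

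Hes5, a repressor of the same family, had the largest difference of the 9 tested genes. Its brightest probe set (1456010_x_at, a kind whose oligonucleotides may also bind other transcripts) stood at 8.04 in the collecting duct and at 7.86, 9.99 and 9.97 in the anlage. The anlage was divided, array 1 lying with the collecting duct and arrays 2 and 3 far above, and the anlage arrays spanned 2.13. The difference was −1.23 ± 0.95 (SE), 2.35-fold lower, with an interval from −3.55 to 1.08 and an unadjusted p of 0.241 in limma. Without anlage array 1 the difference was −2.03, with an unadjusted p of 0.00705 and an adjusted p of 0.323 in limma, and in that refit 7.85% of all genes were lower at an unadjusted p under 0.05. Leaving out anlage array 2 or 3 instead gave −0.84 or −0.90.

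In the other Hes5 probe set (1423146_at) the collecting duct lay below all 3 anlage arrays, as for 22.5% of tested probe sets. Its deposited intensity was 32.0 in the collecting duct and 341.7, 331.2 and 305.7 in the anlage, before normalization. After normalization the anlage arrays spanned 0.92, with an SD of 0.47, near the median of 0.463 over all tested genes. The log2 levels were then 7.16 against 8.43, 9.35 and 8.77, and the difference was −1.69 ± 0.60 (SE). Limma gave it an unadjusted p of 0.0322 and an adjusted p of 1 over all 22499 probe sets tested, of which 2.41% had an unadjusted p under 0.05. The collecting duct value is under 8.416, so the size of the difference depends on the offset. The 2 probe sets thus ordered anlage array 1 differently, with the collecting duct in one and well above it in the other.

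Hey1, a target of the Hairy-related family known from arteries, stood at 9.99 in the collecting duct and at 9.91, 11.47 and 10.62 in the anlage. As in the brightest Hes5 probe set, anlage array 1 lay with the collecting duct, and anlage array 2 was the highest. The difference was −0.68 ± 0.72 (SE), 1.60-fold lower, with an interval from −2.45 to 1.09. Leaving out anlage array 1 gave −1.15 and leaving out anlage array 2 gave −0.26, neither called.

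The DNA before the start of these genes is shown for the members with a match to the RBPJ motif, since that protein carries the Notch signal to its targets. RefSeq promoter windows (build GRCm38.p6) matched 8 of the 10 members, all but Hes1 and Hey1, and the 250 bases before each start of these 8 were searched for the core TGGGAA on either strand. Hes5 and Lfng held it, each at 2 places, where 21.6% of all 32851 windows held it at least once. The longer GTGGGAA, which contains the core, matched at both places in Hes5 and at 1 in Lfng, and 5.42% of all windows held it. Capitals mark the core, which reads as its reverse complement where it lies on the opposite strand. Bases are written 5' to 3' on the strand of the gene, the plus strand for both genes, at chr4:154960673-154960922 for Hes5 and chr5:140607091-140607340 for Lfng.
Hes5: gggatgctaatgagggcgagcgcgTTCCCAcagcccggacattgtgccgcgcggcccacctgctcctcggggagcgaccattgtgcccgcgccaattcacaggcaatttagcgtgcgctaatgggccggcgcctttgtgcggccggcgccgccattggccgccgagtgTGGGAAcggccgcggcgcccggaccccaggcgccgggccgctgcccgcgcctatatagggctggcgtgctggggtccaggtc
Lfng: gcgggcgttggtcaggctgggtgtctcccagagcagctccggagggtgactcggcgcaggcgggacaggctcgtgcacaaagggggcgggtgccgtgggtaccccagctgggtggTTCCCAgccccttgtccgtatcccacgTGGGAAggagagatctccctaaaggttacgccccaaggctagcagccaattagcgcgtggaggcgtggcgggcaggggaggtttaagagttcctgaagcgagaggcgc
The matches in Hes5 lay 226 to 221 and 82 to 77 bases before the start, and those in Lfng 135 to 130 and 108 to 103 bases before it. A match describes the letters and not binding, and no array here measured RBPJ on DNA.

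**Figure D3:**
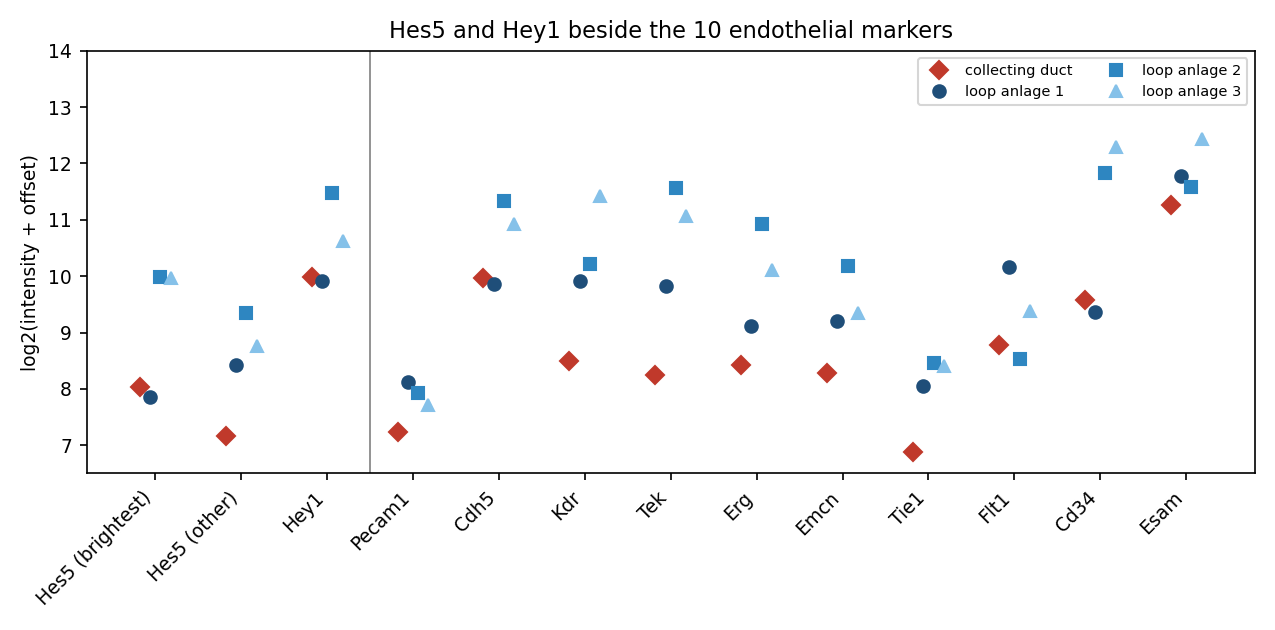
Levels of both Hes5 probe sets and of Hey1 (left of the line) and of the 10 endothelial markers (right), as log2(intensity + 109.6) in the collecting duct array (red diamonds) and loop anlage arrays 1 to 3 (blue symbols). For the brightest Hes5 probe set, Hey1, Cdh5 and Cd34 the collecting duct and anlage array 1 lie together below anlage arrays 2 and 3. The other Hes5 probe set and 7 of the 10 endothelial markers are lowest in the collecting duct alone.

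Endothelial markers also differed between the arrays. Their mean log2 level over 10 genes was 8.72 in the collecting duct and 9.54, 10.26 and 10.31 in anlage arrays 1, 2 and 3, and their summed intensity ran from 5162 in the collecting duct to between 8711 and 19264 in the anlage. All 10 were lower in the collecting duct than the anlage mean, and 7 lay below all 3 anlage arrays. The brightest Hes5 probe set, Hey1, Cdh5 and Cd34 were lowest in anlage array 1, and the other Hes5 probe set in the collecting duct. Among the defining genes, the vascular cadherin Cdh5 stood at 9.96 against 9.86, 11.33 and 10.93, and Pecam1 lay under the cut-off by its mean. The 7 markers of stroma and mural cells were mixed, with 2 higher than the anlage mean in the collecting duct and 3 below all 3 anlage arrays. The pericyte gene Rgs5, with the largest fall of the 7, read 8.86 against 9.83, 12.32 and 12.45. The 2 higher ones, Foxd1 and Pdgfra, differed by 0.36 and 0.23. The part of vessel cells in the Hes5 and Hey1 values was not tested. The arrays also fell in the order of the Gapdh ratio for the brightest Hes5 probe set and for Hey1, lowest where the ratio was lowest, as for 13.6% of all tested probe sets, and the part of shortened RNA was not tested either. The brightest Hes5 probe set and Hey1 were highest in anlage array 2. For Hes5 this was a near tie, at 9.99 against 9.97 in anlage array 3. As deposited, anlage array 3 was the higher for that probe set, at 831.2 against 649.4. Its match to the Gapdh order rests on the same near tie. The part of the collecting duct and loop marker levels of anlage array 2 was not tested.

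Genes listed as markers of intercalated cells, the collecting duct cells that lack active Notch, were mixed. Of the 4, 3 had means above the cut-off. Foxi1, the transcription factor that defines these cells, read 9.51 in the collecting duct and 7.47, 7.87 and 7.25 in the anlage, above all 3, but its mean lay under the cut-off and it was not tested. The proton pump subunit Atp6v1b1 read 7.81 against 10.45, 8.07 and 8.58, the opposite way. The anion exchanger Slc4a1 read 9.93 against 11.26, 10.79 and 9.82, and the proton pump subunit Atp6v0d2 read 9.71 against 9.91, 8.45 and 9.94. Of the 4 markers 2 were higher than the anlage mean in the collecting duct.

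The rest of the pathway was taken from a list of 54 genes, of which 49 were matched on the array and 42 tested. Limma called 0 of the 42 at an adjusted p of 0.05, and 1 had an unadjusted p under 0.05, against 3.41% of all genes. The collecting duct value was higher for 21 and lower for 21, above all 3 anlage arrays for 6 and below for 8, beside 17.3% and 24.3% of all genes, and the median difference was 0.01.

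The gene with the low unadjusted p was Spen, which encodes a corepressor that sits with RBPJ when Notch is off. It stood at 7.18 in the collecting duct and at 9.21, 9.10 and 8.80 in the anlage, the lowest of the 4 arrays. The difference was −1.86 ± 0.50 (SE), with an unadjusted p of 0.0097 and an adjusted p of 0.9999 in limma. Its collecting duct value was dim, and with an offset of 16 the difference was −3.08, with the median as offset −0.96. The corepressor-side genes Kdm5a and Hdac1 differed by 0.99 ± 1.11 and −0.29 ± 0.58 (SE), and leaving out anlage array 1 or 2 gave 1.85 or 0.24 for Kdm5a.

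Among further ligands, the arterial ligand Dll4 read 8.67 in the collecting duct against 8.48, 9.05 and 9.51, and the Delta-like proteins Dlk2 and Dlk1 differed by −0.30 ± 0.52 and −0.20 ± 0.62 (SE). All 3 tested ligands of the list had lower values, and 1 of them, Dlk2, lay below all 3 anlage arrays. Of all tested genes, 54.9% were lower and 24.3% lay below all 3. The other probe set of Dlk2 differed by 0.05, and Dlk1 by 0.11 without anlage array 1. Notch4, the endothelial receptor, was not tested because its mean over the 4 arrays lay under the cut-off. It read 6.94 against 7.99, 9.42 and 8.84, lowest in the collecting duct. Another dim probe set of Notch4 read 7.40 against 7.18, 7.27 and 7.53, and a further dim one was again lowest in the collecting duct, at 7.72.

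Receptor-modifying and trafficking genes went either way. Poglut1 and Pofut1, which add the first sugars to Notch, differed by 0.58 ± 0.62 and 0.23 ± 0.50 (SE), and the fringe Mfng by −0.36 ± 0.67. Numb, an inhibitor that draws Notch receptors into the cell, stood at 13.89 against 12.40, 13.39 and 13.08, above all 3 anlage arrays, with a difference of 0.94 ± 0.55 (SE) and an unadjusted p of 0.138 in limma. The ubiquitin ligases Dtx1 and Itch, which act on the receptor, differed by −0.67 ± 0.53 and −0.58 ± 0.47 (SE) and lay below all 3. Another probe set of Itch differed by 1.55 ± 0.81 (SE), so the direction of Itch is not settled.

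The cleavage and nuclear steps were likewise without calls. The gamma-secretase subunits Aph1b and Psenen differed by 1.14 ± 0.86 and 0.44 ± 0.54 (SE), and the ADAM protease Adam10, which makes the first cut, by 0.47 ± 0.52. The value for Aph1b was 0.49 without anlage array 2 and −0.47 in its other probe set. Rbpj, the DNA-binding core, stood at 12.32 in the collecting duct and at 11.43, 13.63 and 13.62 in the anlage, with anlage array 1 apart from the other 2. Its arrays fell in the order of the Gapdh ratio, lowest where the ratio was lowest, and the part of shortened RNA was not tested. A further probe set with that order differed by −1.10, and another without it by 0.18. The difference of the brightest was −0.58 ± 0.96 (SE), −1.35 without anlage array 1, with an adjusted p of 0.359 in limma, and about −0.20 without anlage array 3. The coactivators Ep300 and Kat2b differed by 0.76 ± 0.63 and −0.64 ± 0.51 (SE), and another probe set of Kat2b by 1.27.

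Among further targets, Nrarp, a feedback inhibitor that Notch itself switches on, stood at 11.47 in the collecting duct and at 11.98, 12.41 and 12.18 in the anlage. The collecting duct was the lowest array, and the difference was −0.72 ± 0.51 (SE), with an unadjusted p of 0.202 in limma. Hes6 differed by −0.26 ± 0.51 and Heyl by 0.05 ± 0.65 (SE). Other probe sets turned both directions, at 0.13 for Hes6 and −1.14 for Heyl, the latter with the collecting duct below all 3 anlage arrays. Of the 3 tested targets outside the members, 2, Nrarp and Hes6, lay below all 3 anlage arrays, beside 24.3% of all genes. Neither did so in its other probe set, where Nrarp read 8.91 in the collecting duct against 8.80, 10.19 and 9.50.

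**Figure D4:**
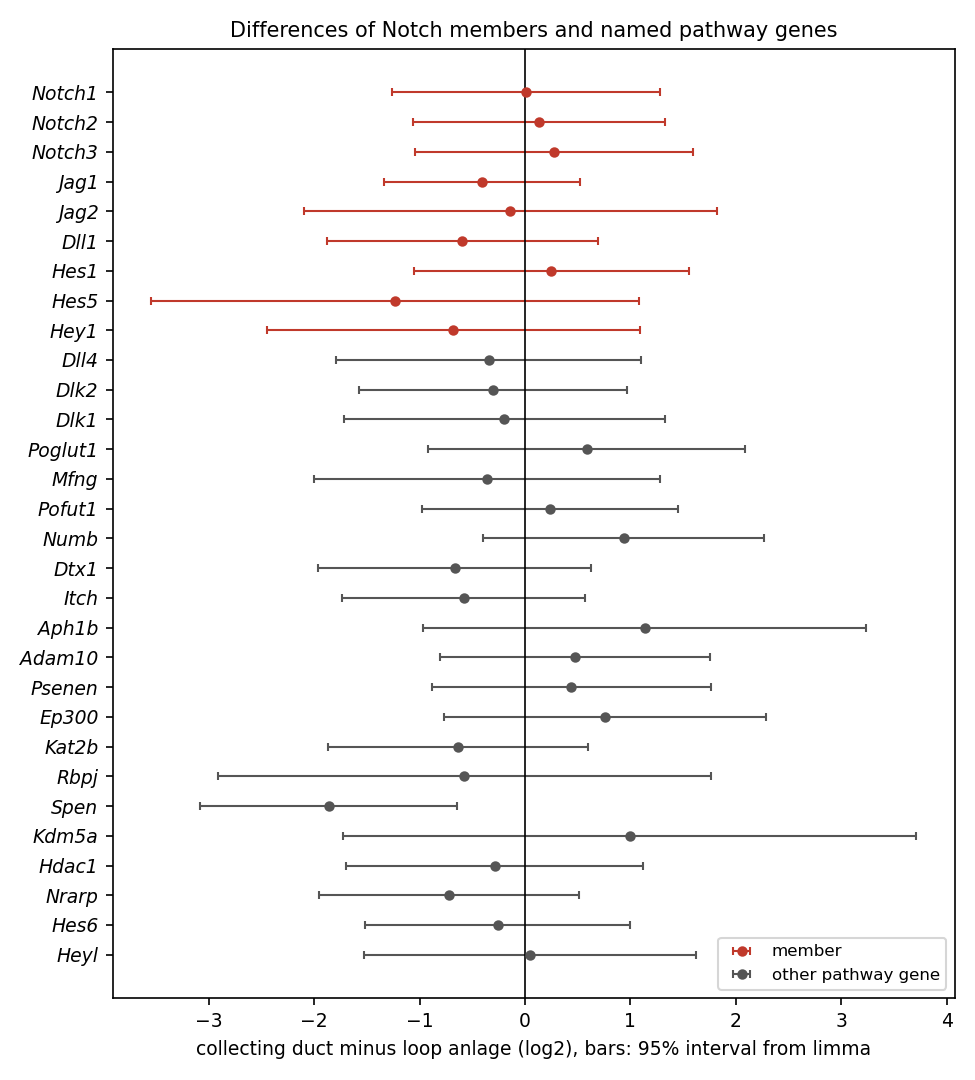
Difference in log2 level, collecting duct minus loop anlage, for the 9 tested Notch genes (red) and the 21 named pathway genes (grey), with 95% intervals from the limma fit of 1 array against 3. The interval of every gene but Spen includes 0, and the intervals of Hes5, Kdm5a, Rbpj and Aph1b are the widest.

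The spread among the anlage arrays differed between the Notch genes. Hes5 had an anlage SD of 1.22, at percentile 93.7 of all tested genes, Jag2 of 0.95 (percentile 86.2) and Hey1 of 0.78 (percentile 77.9). The probe sets of these 3 also had the lowest anlage means of the tested members, at 9.27, 9.35 and 10.67. That ranks probe set signal and not the amount of transcript. Notch1, Notch3 and Hes1 had SDs of 0.35, 0.37 and 0.31, each under the median of all genes, 0.463. Leaving out anlage array 1 put the collecting duct outside the other 2 anlage arrays for 8 of the 9 genes, 2 above and 6 below, where 25.7% of all genes lay above and 47.5% below.

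By the mean distance of centred levels over the 4 arrays, the genes closest to Hes5 outside the pathway were Ost4, Plgrkt and Sox18. Their mean distances from Hes5 were 0.0434, 0.0455 and 0.0604 log2 units. The genes closest to Notch3, the member with the largest positive difference, were Pacsin1, Agpat4 and Cyb5b. With 4 arrays many genes share a pattern, and 1055 genes lay within 0.5 of Hes5 and 8626 within 0.5 of Notch3.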

How the data were processed

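Per the submitters' processing notes, the authors made the deposited probe set intensity values with GCOS (version not given in the sources used here). Every array had the same mean of 1500 once 2% of the deposited values at each end were trimmed, and medians ran from 206.9 to 526.5. Arrays were quantile normalized, and log2(intensity + 109.6) was taken, the offset being the 25th percentile. A fold on this scale understates changes of dim genes. After 64 control probe sets were removed, 34945 probe sets had 1 gene symbol, 932 several and 9160 none. The brightest probe set stood for a gene, and 12642 genes with a mean of at least 8.416, the 40th percentile, were tested.

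Testing used limma 3.58.1 in R 4.3.3 (lmFit, eBayes with an intensity trend, Benjamini-Hochberg, 95% intervals), with 2 residual and 4.04 prior degrees of freedom. All of the spread came from the anlage arrays, and the lone collecting duct array was taken to vary as they do. A second fit covered all 22499 probe sets above the cut-off. With 1 array against 3, exact permutation could reach no p lower than 0.25 and was left out. The fits were tested on simulated data, which recovered the sizes of known changes on average, but calls came only for changes larger than that of any Notch gene, so the lack of calls does not show equal levels. For arrays their number limits the precision. Named pathway genes were up to 3 per role with the largest absolute difference. The markers were 10 for collecting duct, 8 for loop, 10 for endothelium, 7 for stroma and mural cells and 4 for intercalated cells, with early nephron, podocyte, proximal tubule and cap mesenchyme lists not used in the text beyond the closing section. Members and lists were chosen with earlier results of these data known. Notch4, Foxi1, Atp6v1b1, Slc4a1, Atp6v0d2, Calb1, Cdh5, Cd34, Pecam1, Rgs5, Foxd1, Pdgfra, Lhx1, Wt1 and Pax8 were picked for the text after their values were seen.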

Additional observations from a re-analysis of the deposited data

How the results depend on the processing

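No paired analysis was possible because the structures share only 1 replicate number. The limma calls were 0 of the Notch members and 0 of the other pathway genes in every setting tried. Over all genes they were 0 except without anlage array 2, so leaving out an array gave 0 to 14. Members with the collecting duct outside the anlage range numbered 2 as reported, 4 with values as deposited, 1 with arrays scaled to a common median, 5 with the mean of all probe sets, and 2 to 8 without 1 anlage array. Gene differences kept their sign in 333 of 364 refits. Scaled to a common median, the sign turned for Notch1 (−0.24), Notch2 (−0.26), Notch3 (−0.016), Pofut1 (−0.10) and Heyl (−0.054), where the median of all genes was −0.242. As deposited it turned for Jag2 (0.065) and Dlk1 (0.085). With the mean of all probe sets it turned for Notch1 (−0.44), Pofut1 (−0.12), Heyl (−0.35), Kat2b (0.062) and Itch (0.46). Another probe set had the opposite sign for Notch1 (−0.89), Jag1 (0.28), Jag2 (0.027), Rbpj (0.18), Dlk2 (0.051), Itch (1.55 and 0.69), Aph1b (−0.47), Heyl (−1.14), Adam10 (−0.041), Pofut1 (−0.94), Hes6 (0.13) and Kat2b (1.27). Without 1 anlage array the ranges that crossed 0 were −0.10 to 0.22 for Notch1, −0.10 to 0.25 for Notch2, −0.68 to 0.34 for Jag2, −0.42 to 0.11 for Dlk1 and −0.28 to 0.30 for Heyl. The cause was not tested. Jag2, Hes5, Dll4 and Spen were too dim to test with a cut-off at the 60th percentile, as was Spen without anlage array 1 or 2. Lfng was tested only with no cut-off.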

Other observations

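Markers of other kidney cell types differed between the anlage arrays. The 3 matched podocyte markers averaged 9.67 in the collecting duct and 9.42, 11.03 and 10.14 in anlage arrays 1, 2 and 3, and the 4 cap mesenchyme markers 9.78 against 9.98, 11.15 and 9.33. The 5 early nephron markers averaged 11.45 against 12.16, 12.70 and 11.78, and 3 of them were below all 3 anlage arrays in the collecting duct. The 5 proximal tubule markers averaged 9.27 against 9.79, 10.12 and 9.81. Lhx1, a transcription factor of the early nephron, read 9.59 in the collecting duct and 10.86, 11.90 and 9.85 in the anlage. Of the 5 early nephron markers 1, Wt1, was higher than the anlage mean in the collecting duct, by 0.50, and Pax8 differed by −0.11. The part of these cells in the Notch values was not tested.

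Maml2, a coactivator of the Notch complex, read 8.79 in the collecting duct and 10.65, 7.02 and 7.27 in the anlage. Its anlage SD of 2.03 was the widest of the 42 tested pathway genes, and anlage array 1 stood far above the others. Its 4 arrays fell in the order of the Gapdh ratio, highest where the ratio was lowest, and the part of shortened RNA was not tested. It was chosen after its values were seen. Over all probe sets tested, the 4 arrays fell exactly in the order of the Gapdh ratio for 10.7% with the highest level at the lowest ratio, and for 13.6% the other way round. Of the 15 tested probe sets of the Notch members, 2 had the first order (in Notch2 and Hes1) and 3 the other (in Jag2, Hes5 and Hey1). The brightest probe set of Lfng, not tested, also had the other order. Among the named pathway genes, the brightest probe sets of Kdm5a and Psenen had the first order, and those of Mfng, Hdac1 and Rbpj the other.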
